A study of Mus musculus with 12 samples.

Results

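Collagen chain genes were followed in ovary and gonadal fat of female mice carrying a dihydrotestosterone (DHT) implant. They comprised every gene whose symbol has the form of a collagen chain, Col, a type number, the letter a and a chain number, and whose array row carries that symbol alone. The rule found 42 genes among the 30176 genes of the array table, each with 1 row. By the structure of the collagen they build, 11 were fibrillar, 6 basement membrane, 5 beaded filament, 9 fibril-associated (FACIT), 3 network or anchoring, 4 transmembrane and 2 multiplexin chains, and 2 fell in no such class. The rows of Col7a1 and Col6a4 each carry a symbol of another gene as well and were left out.

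The animals were C57BL/6J females that received a silicone capsule at 25 days of age. The capsule held 5 mg of DHT in the DHT-treated mice and nothing in the control mice, and tissues were taken about 60 days later. DHT, an androgen that aromatase does not convert to estrogen, was used to model the hyperandrogenism of polycystic ovary syndrome. Total RNA from 3 mice per group and tissue was hybridised, which makes 12 Affymetrix Mouse Transcriptome Assay 1.0 arrays in 4 groups. Neither the estrous stage nor the part of the fat pad sampled was stated in the sources used here.

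Collagens are secreted proteins of 3 alpha chains wound into a triple helix, which requires a glycine at every turn. The chains are hydroxylated and glycosylated in the endoplasmic reticulum, trimmed by proteases outside the cell and cross-linked by lysyl oxidases. Fibrillar collagens I, III and V bear tension in the ovarian stroma and around adipocytes. Collagen IV forms the sheet of every basement membrane, such as the one that encloses the follicle. Collagen VI forms beaded filaments that join cells to the matrix and is abundant in adipose tissue.

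Values are log2 expression per array. A gene was tested in a tissue when it lay above the array median of all rows in at least 3 of the 6 arrays. It was called when the adjusted p of limma, a linear model with shared variance estimates, was at most 0.10 after Benjamini-Hochberg adjustment over all genes tested. Of the 42 chain genes, 39 were tested in the ovary and 41 in gonadal fat. Col10a1, the hypertrophic cartilage chain, was tested in neither tissue, and Col8a1 and Col19a1 were not tested in the ovary. No level was compared between different genes or between the tissues, because probes differ in brightness and the array medians were 4.35 to 4.43 in the ovary and 3.30 to 3.52 in fat.

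The gonadal fat values of 26501 rows stood away from their names in the deposited table and were paired again with their names before any test. On chromosome 15, that of Col14a1, the values stood up to 58 rows away. Over those rows the correlation of the mean ovary and mean fat values was 0.0139 as deposited and 0.946 after re-pairing, against 0.943 over the other rows. The step moved 13 chain genes, among them Col1a1, Col6a1, Col6a2 and Col14a1, but not Col6a5, Col6a6 or the Col4 genes. Oviduct markers averaged 6.36 to 7.17 in ovary DHT replicates 2 and 3 and ovary control replicate 2, against 4.98 to 5.12 in the other 3 ovary arrays. All 4 corpus luteum markers fell in the ovary, where their mean was 6.51 to 7.13 in DHT-treated mice and 9.26 to 11.3 in control mice. Adipocyte markers averaged 5.64 to 6.52 in DHT ovaries and 6.62 to 7.58 in control ovaries.

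Few chain genes were called. In the ovary 2 rose, Col6a5 and Col4a3, and none fell, against 9 at an unadjusted p under 0.05. Of all genes tested there, 0.544% rose and 0.717% fell, and 2546 of 19118 had an unadjusted p under 0.05. In gonadal fat 2 rose, Col6a5 and Col6a6, and 1 fell, Col14a1, where 2.65% of all genes rose and 1.22% fell. Col6a5 was the chain gene called in both tissues. In whole tissue, fewer cells of a type and less RNA per cell cannot be told apart.

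**Figure D1:**
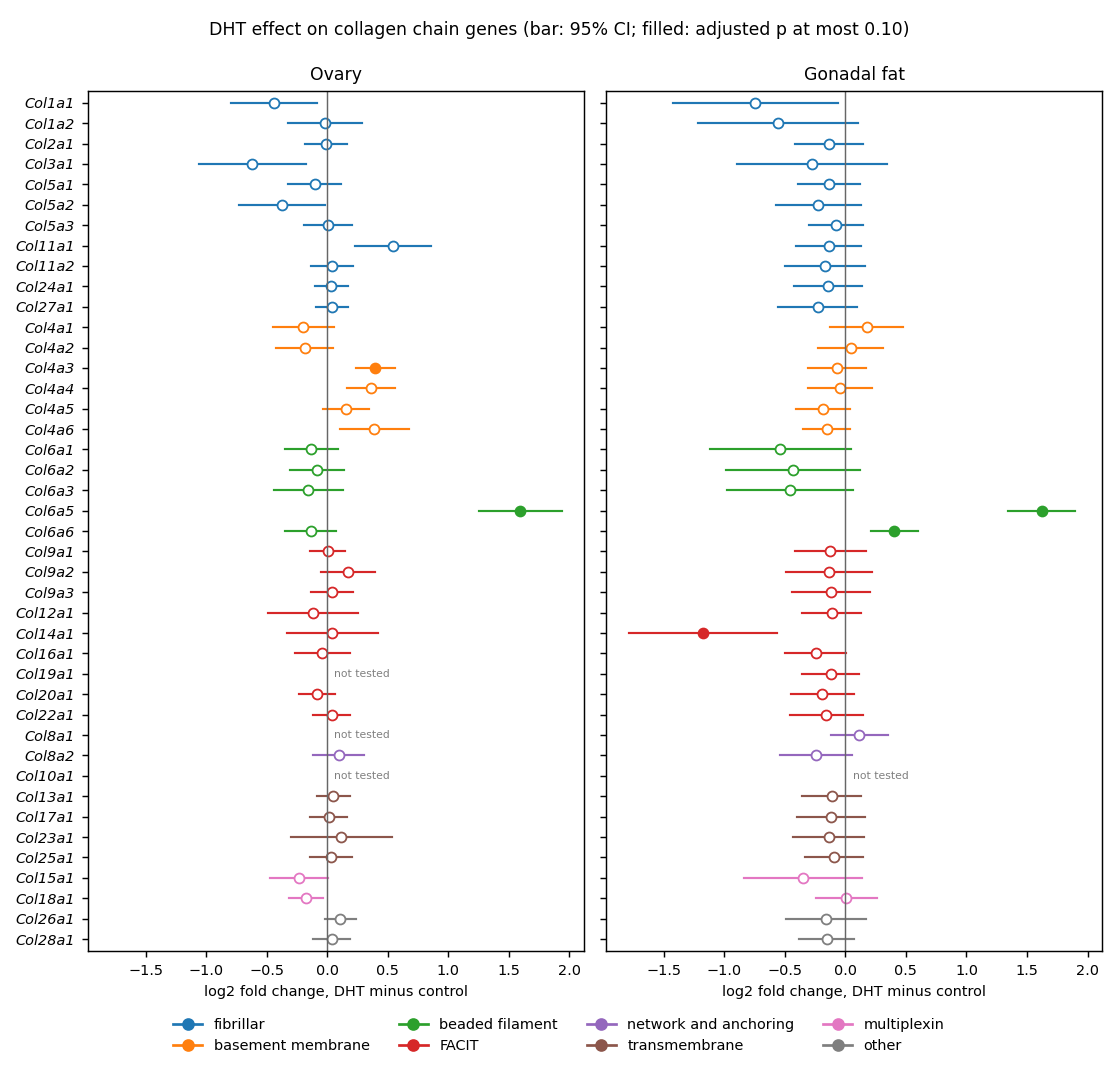
Log2 fold change (x axis, DHT minus control) of the 42 collagen chain genes (y axis, grouped and coloured by class) in the ovary and in gonadal fat, with 95% confidence intervals from limma. Filled points are called, which are Col6a5 and Col4a3 in the ovary and Col6a5, Col6a6 and Col14a1 in fat. Col6a5 stands at 1.59 and 1.62, away from the other chains.

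The collagen VI genes are described first. In the mouse, Col6a1, Col6a2 and Col6a3 encode the chains of the classical filament unit, and Col6a4, Col6a5 and Col6a6 encode chains that resemble and can take the place of the Col6a3 product. Col6a5 and Col6a6 are neighbours on chromosome 9 and are read from the same strand. The bases before their start sites are shown because Col6a5 was called in both tissues and its neighbour in fat, and those of Col4a6 and Col11a1 because their DHT effect differed between the tissues. They come from RefSeq on GRCm38.p6, read 5′ to 3′ on the strand of the gene, with bases inside the outermost RefSeq transcript of Col6a6, Col4a6 and Col11a1 left out. The Col6a5 stretch lies inside the span of a longer RefSeq model of that gene. Capitals mark GGGCGG, the GC box, searched on both strands.
Col6a5, chr9:105960644-105960893, minus strand: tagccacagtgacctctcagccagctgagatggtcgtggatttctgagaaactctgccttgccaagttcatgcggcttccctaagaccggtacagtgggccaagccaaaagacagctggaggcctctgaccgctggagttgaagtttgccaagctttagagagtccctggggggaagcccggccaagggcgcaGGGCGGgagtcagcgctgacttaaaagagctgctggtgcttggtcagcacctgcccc
Col6a6, chr9:105828247-105828335, minus strand: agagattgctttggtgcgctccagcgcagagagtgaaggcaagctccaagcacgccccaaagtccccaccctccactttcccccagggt
Col4a6, chrX:141474096-141474326, minus strand: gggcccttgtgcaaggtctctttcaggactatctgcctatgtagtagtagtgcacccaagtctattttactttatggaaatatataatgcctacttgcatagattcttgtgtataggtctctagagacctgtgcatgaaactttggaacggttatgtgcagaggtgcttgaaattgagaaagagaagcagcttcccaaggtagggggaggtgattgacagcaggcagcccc
Col11a1, chr3:114030290-114030478, plus strand: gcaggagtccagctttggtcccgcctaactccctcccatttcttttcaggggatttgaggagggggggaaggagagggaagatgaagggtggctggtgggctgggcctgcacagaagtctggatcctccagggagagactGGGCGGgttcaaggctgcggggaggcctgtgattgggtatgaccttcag

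The Col6a5 and Col11a1 stretches each held 1 GC box, and the other stretches shown held none. Over the full 250 bases before the start, 20 of 36 promoters of 33 chain genes held a GC box, and 32.7% of 32851 RefSeq promoters did. Col6a6 and Col4a6 were among the genes with a GC box over that length, although their shorter stretches shown, of 89 and 231 bases, held none. The hexamer AGAACA, searched on both strands because it forms either arm of the androgen and glucocorticoid receptor element, stood in 2 of the 36, those of Col20a1 and Col9a1, against 16.1% of all. The full palindrome, both arms set 3 bases apart, was in none of the 36 and in 0.00913% of all. TATAAA on the gene's strand stood in 5 of the 36, Col10a1, Col11a2, Col13a1, Col17a1 and Col3a1, against 7.59% of all. The median GC content was 59.4% in the chain gene promoters and 52.4% in all promoters. These are matches of letters, and no site was measured.

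Col6a5 rose about 3-fold in both tissues. In the ovary its log2 values were 7.67, 7.29 and 7.69 in DHT-treated mice and 6.12, 6.00 and 5.74 in control mice. Every DHT ovary lay above every control ovary by more than the spread within either group. The log2 fold change was 1.59 (95% CI 1.25 to 1.94), a 3.02-fold rise, with an adjusted p of 0.0147 by limma. In gonadal fat the log2 values were 6.69, 6.99 and 6.61 with DHT and 5.02, 5.23 and 5.16 in controls, again with a wide gap between the groups. The log2 fold change there was 1.62 (95% CI 1.35 to 1.90), a 3.08-fold rise, with an adjusted p of 0.00214 by limma. The effects in the tissues differed by 0.03 (fat minus ovary, 95% CI -0.40 to 0.45, adjusted p = 0.949 by limma). Without both arrays richest in oviduct markers, the ovarian log2 fold change was 1.55, with an adjusted p of 0.250 in that smaller limma fit.

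Col6a6 moved with its neighbour in fat but not in the ovary. Its fat log2 values were 5.74, 5.90 and 5.77 with DHT and 5.42, 5.40 and 5.38 in controls. The groups did not overlap, and the SD of the controls was 0.0203. It rose by 0.40 on the log2 scale (95% CI 0.21 to 0.60, 1.32-fold, adjusted p = 0.0614 by limma). In the ovary its values were 6.25, 6.18 and 6.35 with DHT and 6.28, 6.36 and 6.55 in controls, so the groups overlapped, and the log2 fold change was -0.13 (adjusted p = 0.609 by limma). The difference between the tissues was 0.54 (95% CI 0.28 to 0.80, adjusted p = 0.0340 by limma). The fat call of Col6a6 was lost without DHT replicate 2 or 3 or any 1 of the control replicates, with adjusted p values up to 0.272, and with the smooth muscle markers as a covariate (0.44, adjusted p = 0.156), whereas the difference between the tissues was called in all 16 alternatives.

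**Figure D2:**
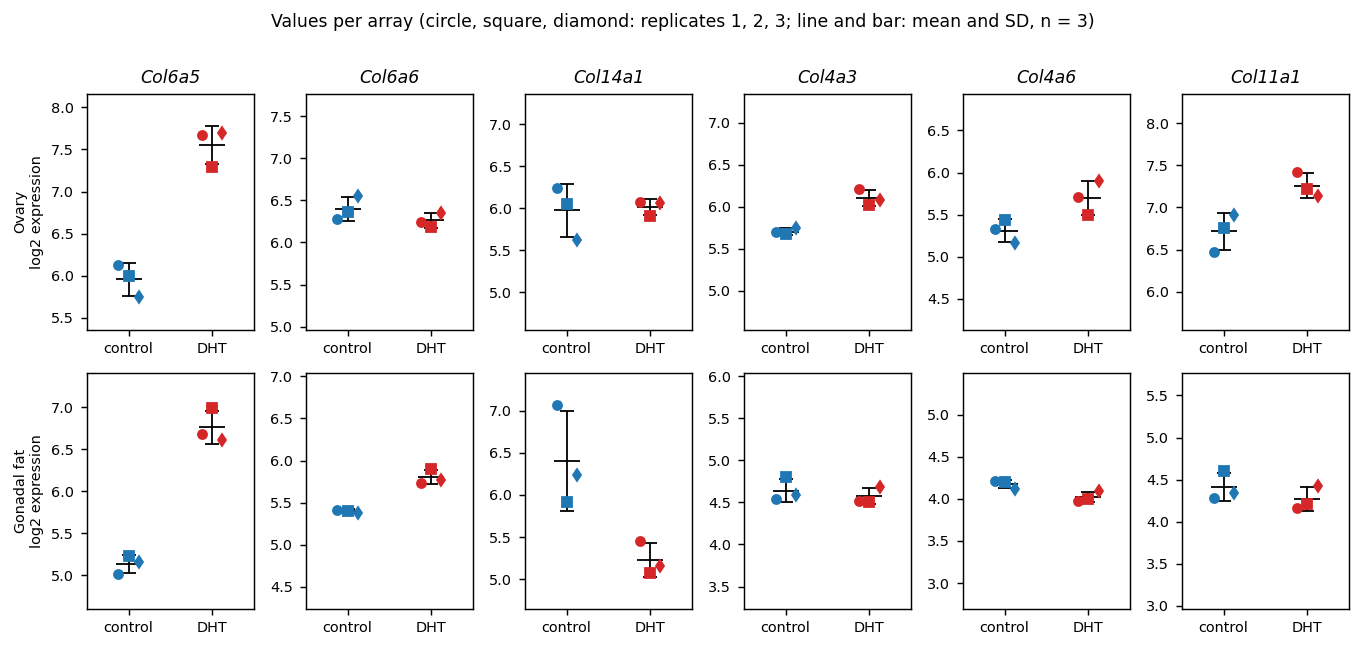
Log2 expression per array (y axis, each panel spanning the same log2 range) in control and DHT-treated mice for 6 collagen genes, in the ovary (upper row) and gonadal fat (lower row). Symbols mark replicates 1 to 3, and the line and bar give mean and SD. The DHT arrays of Col6a5 lie above the controls in both tissues, those of Col6a6 in fat alone, and those of Col4a3, Col4a6 and Col11a1 in the ovary alone.

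The classical chains did not follow Col6a5. In fat, Col6a1 measured 6.97, 7.12 and 7.29 with DHT and 8.32, 7.38 and 7.29 in controls. Control replicate 1 lay far above the other controls, which were close to the DHT arrays. The log2 fold change was -0.54 (adjusted p = 0.343 by limma) and -0.21 without that control. For Col6a2 it was -0.43 (adjusted p = 0.411) and -0.13 without it, and for Col6a3 -0.46 (adjusted p = 0.365) and -0.18. In the ovary the log2 fold changes of Col6a1, Col6a2 and Col6a3 were -0.13, -0.09 and -0.15, with adjusted p values of 0.636 to 0.796 by limma, and the groups overlapped for each.

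The fibrillar chains held no called gene in either tissue. In the ovary 5 of 11 had a higher and 6 a lower mean with DHT, with a median log2 fold change of -0.01 against -0.00 over all genes tested. The 3 with the lowest p were Col11a1, Col3a1 and Col1a1. Col3a1, the chain of the fine reticular fibrils, measured 8.36, 8.69 and 8.45 with DHT and 9.52, 8.94 and 8.89 in controls. The groups did not overlap, control replicate 1 was the highest, and the log2 fold change was -0.62 (95% CI -1.06 to -0.18, adjusted p = 0.224 by limma). Col1a1, a chain of the main fibril collagen, measured 8.17, 8.26 and 8.42 with DHT and 9.02, 8.68 and 8.46 in controls. Its groups nearly met, and the log2 fold change was -0.44 (adjusted p = 0.272 by limma). Without control replicate 1, the control ovary with the highest adipocyte marker mean, the log2 fold change was -0.29 for Col1a1 and -0.42 for Col3a1. With the adipocyte markers as a covariate it was -0.21 and -0.39. The adipocyte marker means of the 2 ovary groups did not overlap. A fit with this covariate, here and below, therefore cannot tell a DHT effect from one of adipocyte content. Over all genes 4 rose and 17 fell in it, against 104 and 137 in the main fit. Col1a2, whose product joins that of Col1a1 in the same trimer, had a log2 fold change of -0.02 in the ovary, with overlapping groups, and of 0.13 without control replicate 1.

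Col11a1, a minor fibrillar chain that is set inside cartilage and other fibrils, had higher values in the DHT ovaries. It measured 7.42, 7.22 and 7.14 with DHT and 6.48, 6.76 and 6.92 in controls, with no overlap. The log2 fold change of 0.55 (95% CI 0.23 to 0.86, 1.46-fold) was not called (adjusted p = 0.166 by limma). It was called in 1 of 18 alternatives, that with all 12 arrays in 1 fit. In fat the log2 fold change was -0.14, and the difference between the tissues was -0.68 (95% CI -1.08 to -0.29, adjusted p = 0.0668 by limma). Its fat values, 4.17 to 4.60, lay below the 75th percentile of each fat array (4.96 to 5.12). Col11a2, its partner chain, had log2 fold changes of 0.04 in the ovary and -0.17 in fat.

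In gonadal fat all 11 fibrillar chains had a lower mean with DHT, from -0.75 for Col1a1 to -0.08 for Col5a3, but none passed the test and 1 had an unadjusted p under 0.05. Their median was -0.17, against -0.01 over all genes. Without control replicate 1, 10 of 11 were lower, with a median of -0.20, against -0.01 over all genes. Control replicate 2 was the highest array for 6 of the 11 and control replicate 1 for 5, against 31.4% and 12.4% of all genes tested. Col1a1 measured 7.24, 7.49 and 7.55 with DHT and 8.96, 7.88 and 7.69 in controls. Control replicate 1 stood more than 1 log2 unit above the other controls, and the log2 fold change was -0.75 (95% CI -1.43 to -0.06, adjusted p = 0.267 by limma). Without that array it was -0.35. Col1a2 measured 7.17, 7.47 and 7.40 with DHT and 8.67, 7.58 and 7.46 in controls. Its log2 fold change was -0.56 (adjusted p = 0.382 by limma), and -0.17 without control replicate 1. Col3a1 had -0.28 with all arrays and 0.08 without it. Col27a1, a fibrillar chain best known from cartilage, had -0.23 (adjusted p = 0.463).

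Control replicate 1, the highest fat array for Col1a1, Col1a2 and Col3a1, also differed in other markers. Gonadal fat control replicate 1 had the highest mean of the 6 smooth muscle markers, 9.89 against 7.94 and 8.44 in the other controls and 7.17 to 8.48 with DHT. Its mean of the 5 fibroblast markers was 7.60, against 6.54 to 6.80 in the other 5 fat arrays. With the smooth muscle mean as a covariate the log2 fold change of Col1a1 was -0.30, that of Col1a2 -0.11 and that of Col6a1 -0.17, and that of Col6a5 was 1.61. Over the 11 fibrillar chains the median was -0.21 in that fit, with 10 lower, against -0.01 over all genes. The part of these cells in the chain gene values was not tested beyond these fits.

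Across all classes, 35 of 41 chain genes had a lower mean in DHT fat, against 51.4% of all genes tested. The median of the chain genes was -0.14. Control replicate 2, the fat array with the highest median, was the highest array for 22 of the 41, against 31.4% of all genes. Without it 31 of 41 were lower with a median of -0.05, and after centring each array on its median 32 were lower with a median of -0.06. When any other fat array was left out, 34 to 36 of 41 were lower, with medians from -0.22 to -0.11. DHT replicate 1, the fat array with the lowest median, was the lowest array for 25 of the 41, against 4825 of 19251 genes tested. Over all genes the median was -0.01 in the main fit, 0.02 without control replicate 2 and 0.07 after centring. In the ovary 17 of 39 were lower, against 51.6% of all genes. The count was 27 after median centring and 26 without DHT replicate 3, an array that was the highest for 18 of the 39, against 20.3% of all genes. The median after centring was -0.026 over the chain genes and -0.043 over all genes. Without DHT replicate 3 these medians were -0.031 and -0.014. In the ovary 6 chain genes were higher and 4 lower in every DHT array than in any control, against 6.88% and 13.1% of all genes, and in fat 2 were higher and 5 lower, against 14.5% and 8.23%.

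**Figure D3:**
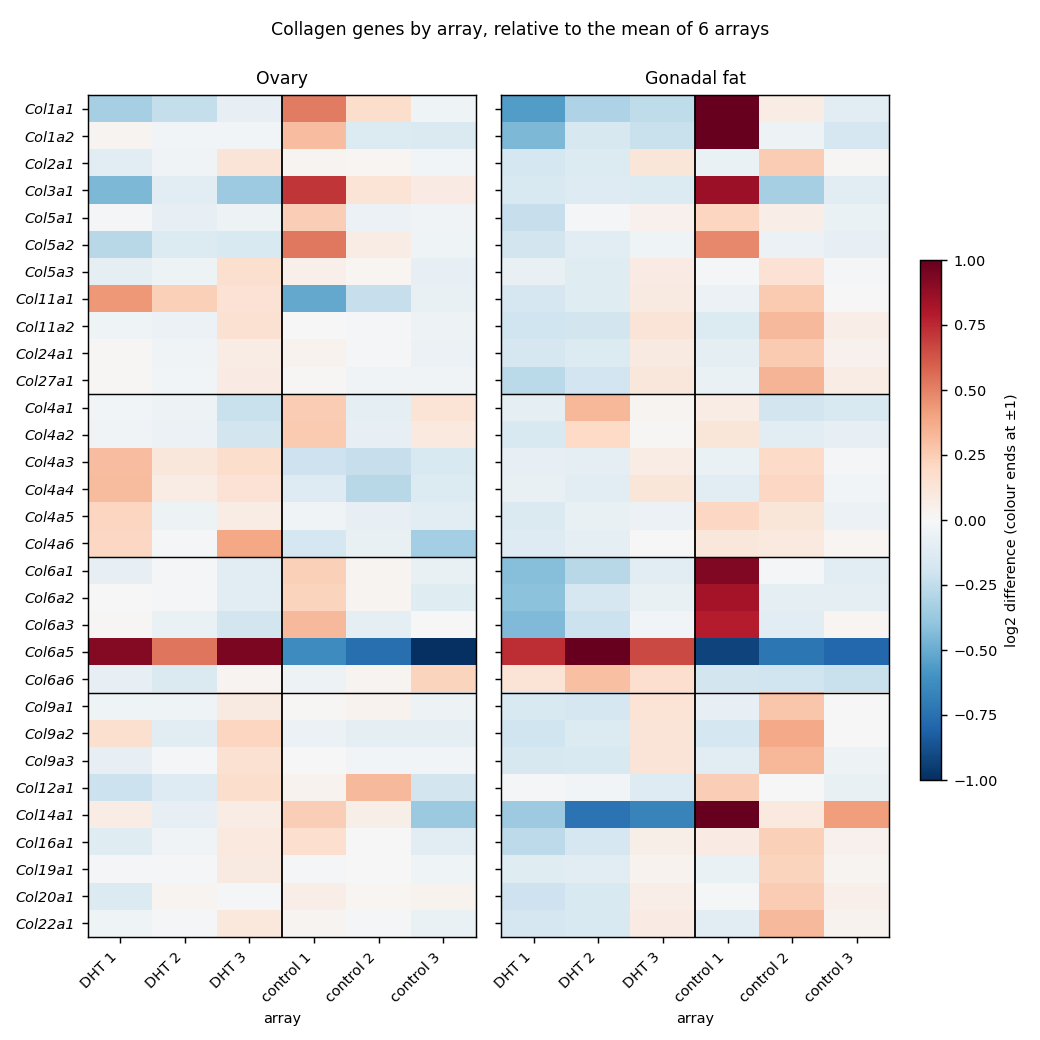
Log2 value of each array minus the mean of that tissue's 6 arrays (colour) for the 31 fibrillar, basement membrane, beaded filament and FACIT genes (rows, separated by lines in that order) in ovary and gonadal fat arrays (columns, numbered by replicate). Col6a5 changes colour at the border between DHT and control in both tissues, whereas Col1a1, Col1a2, Col3a1 and Col6a1 to Col6a3 in fat are raised mainly in control 1.

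Among the basement membrane chains, Col4a3 was the 1 gene called in the ovary. Collagen IV genes lie in head-to-head pairs, Col4a1 with Col4a2, Col4a3 with Col4a4, and Col4a5 with Col4a6. Products of Col4a3, Col4a4 and Col4a5 share a trimer, best known from the glomerulus of the kidney, and the Col4a1 and Col4a2 products form the ubiquitous one. Col4a3 measured 6.21, 6.02 and 6.08 with DHT and 5.69, 5.67 and 5.75 in controls, with no overlap. It rose by 0.40 on the log2 scale (95% CI 0.24 to 0.56, 1.32-fold, adjusted p = 0.0793 by limma). The call was lost when any 1 of the 6 arrays was left out, with adjusted p values of 0.162 to 0.246, while the log2 fold change over all alternatives stayed between 0.34 and 0.48.

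Col4a4 measured 6.78, 6.54 and 6.61 with DHT and 6.33, 6.18 and 6.32 in controls. These groups were also apart, and its log2 fold change of 0.36 (95% CI 0.17 to 0.56) was not called (adjusted p = 0.155 by limma). With the oviduct markers as a covariate it was 0.39, with an adjusted p of 0.0619. Col4a6 measured 5.71, 5.49 and 5.89 with DHT and 5.33, 5.43 and 5.17 in controls, again apart, with a log2 fold change of 0.39 (adjusted p = 0.238). Col4a5 had 0.16 with overlapping groups (adjusted p = 0.469). The ubiquitous pair had values of the other sign, -0.20 for Col4a1 and -0.19 for Col4a2, both with overlapping groups and an adjusted p of 0.502. Without control replicate 1 these were -0.12 and -0.10, and with the adipocyte covariate -0.04 and -0.02.

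In gonadal fat no basement membrane chain was called. Col4a1 measured 8.10, 8.53 and 8.23 with DHT and 8.27, 8.02 and 8.05 in controls, so the groups overlapped, and the log2 fold change was 0.17 (adjusted p = 0.554 by limma). For Col4a3 to Col4a6 the log2 fold changes in fat were between -0.18 and -0.04. The effects differed between the tissues by -0.47 for Col4a3 (95% CI -0.73 to -0.20, adjusted p = 0.0641 by limma) and by -0.54 for Col4a6 (95% CI -0.86 to -0.23, adjusted p = 0.0675). In fat Col4a3 measured 4.51 to 4.80 and Col4a6 3.97 to 4.21, below the 75th percentile of each fat array (4.96 to 5.12). With the 75th percentile filter 2 of the 6 chains were tested in fat. Whether a change could be seen at such low values was not tested. For Col4a4 and Col4a5 the differences were -0.40 and -0.34, with adjusted p values of 0.156 and 0.155. With same-numbered samples taken as 1 mouse and the mouse as a block, the same limma model gave 0.0983 for Col4a4 and 0.0905 for Col4a5, which makes 7 chain genes called in place of 5.

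The FACIT chains, which decorate the surface of fibrils, held the only chain gene that fell. Col14a1, which encodes a collagen that binds to collagen I fibrils, measured 5.45, 5.08 and 5.15 in DHT fat and 7.07, 5.92 and 6.24 in control fat. The lowest control lay above the highest DHT array, and control replicate 1 was the highest. It fell by 1.18 on the log2 scale (95% CI -1.79 to -0.57, 2.27-fold, adjusted p = 0.0738 by limma). Without control replicate 1 the log2 fold change was -0.85 and the adjusted p 0.0534. The call was lost without any 1 of the DHT arrays or without control replicate 3, with adjusted p values up to 0.252, and with the smooth muscle markers as a covariate (-0.89, adjusted p = 0.245). It was also lost with median centring (-1.10, adjusted p = 0.158 by limma) and with no filter on low values (adjusted p = 0.114). In the ovary Col14a1 measured 6.07, 5.91 and 6.07 with DHT and 6.24, 6.05 and 5.63 in controls, a log2 fold change of 0.04. The tissues differed by -1.22 (95% CI -1.98 to -0.47, adjusted p = 0.0832 by limma).

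The other 8 FACIT genes tested in fat all had a lower mean with DHT, between -0.25 for Col16a1 and -0.11 for Col12a1, with none called. Control replicate 2 was the highest array for 7 of the 9, and without it 7 of 9 were lower and the class median went from -0.14 to -0.04. When any other fat array was left out, all 9 were lower, with class medians from -0.25 to -0.11. Col20a1 had -0.19 in fat and -0.08 in the ovary. In the ovary 5 of 8 FACIT genes were higher and 3 lower, from 0.17 for Col9a2, a cartilage chain, to -0.12 for Col12a1, which like Col14a1 binds fibrils, and no groups were apart. The remaining classes held no call. The transmembrane chains Col13a1, Col17a1, Col23a1 and Col25a1, shed from the cell surface, ranged from 0.01 to 0.12 in the ovary and from -0.14 to -0.10 in fat. Of the multiplexins, which sit in vessel basement membranes and release antiangiogenic fragments, Col18a1 had -0.18 in the ovary with groups apart (adjusted p = 0.272 by limma) and 0.01 in fat, and Col15a1 had -0.23 and -0.35, neither called. Without control replicate 1 of the same tissue these Col15a1 values were -0.15 and -0.12, and the ovarian value was 0.02 with the adipocyte covariate.

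**Figure D4:**
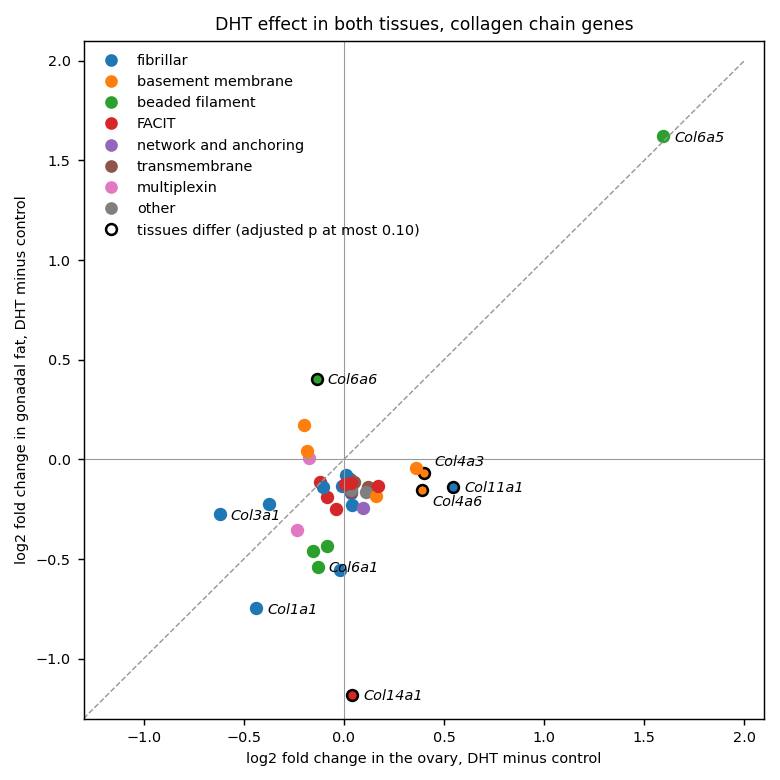
Log2 fold change with DHT in the ovary (x axis) against that in gonadal fat (y axis) for the 39 chain genes tested in both tissues, coloured by class, with equal effects on the dashed line. Black rims mark the 5 genes whose effects differed at an adjusted p of at most 0.10, Col6a6 above the line and Col11a1, Col14a1, Col4a3 and Col4a6 below it. Col6a5 lies near the line at 1.59 and 1.62.

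Taking the tissues against each other, 5 of the 39 chain genes tested in both differed in the main fit, which had no mouse block. Col6a6 had the higher value in fat, where 4.63% of all genes did, and Col11a1, Col14a1, Col4a3 and Col4a6 the lower, as did 1.51%. The median difference was -0.19 over the chain genes and 0.01 over all genes. Centring each array on its median shifted the median of all genes by over 0.1, to 0.13, and left 3 chain genes called, Col6a6, Col11a1 and Col4a3. When each of the 12 arrays was left out in turn, the difference was called in 12 fits for Col6a6, in 5 for Col4a6 and in 4 each for Col11a1, Col14a1 and Col4a3, with adjusted p values up to 0.156, 0.145, 0.186 and 0.145 by limma for Col4a6, Col11a1, Col14a1 and Col4a3.

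Genes that modify, fold, trim and cross-link collagen held no call. Of 35 listed, 30 were tested in each tissue and none was called by limma, against 8 in the ovary and 5 in fat at an unadjusted p under 0.05. Over all genes tested, 2546 of 19118 in the ovary and 3126 of 19251 in fat had such a p. Calls were rare among all genes too, with 0.544% up and 0.717% down in the ovary and 2.65% and 1.22% in fat. In the ovary 19 of the 30 were lower, against 51.6% of all genes tested, with a median of -0.08. Loxl1, a lysyl oxidase of elastic fibres, measured 7.19, 7.24 and 7.24 with DHT and 7.95, 7.83 and 7.50 in controls, with no overlap and a log2 fold change of -0.53 (adjusted p = 0.140 by limma). Fkbp14, a prolyl isomerase that acts on procollagen, had -0.26 with groups apart (adjusted p = 0.140).

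In fat 18 of the 30 were lower, against 51.4% of all genes tested, with a median of -0.07. Plod2, the lysyl hydroxylase of the telopeptides, measured 4.94, 4.87 and 4.79 with DHT and 5.76, 5.12 and 5.48 in controls, with a log2 fold change of -0.59 (adjusted p = 0.110 by limma). Lox, the lysyl oxidase that starts cross-links, ran the other way, at 7.58, 7.73 and 7.63 with DHT and 7.45, 7.00 and 7.11 in controls. Its groups were apart and its log2 fold change was 0.46 (adjusted p = 0.121).

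Of the collagen receptors, a different gene of the same pair was called in each tissue. Antxr1 and Antxr2 encode the anthrax toxin receptors, which bind collagens including collagen VI and take part in matrix turnover. Antxr2 measured 7.44, 7.56 and 7.62 in DHT ovaries and 8.33, 8.07 and 8.02 in control ovaries. The groups were apart, and it fell by 0.60 on the log2 scale (95% CI -0.84 to -0.37, adjusted p = 0.0766 by limma), a call lost without any 1 array other than control replicate 1, with adjusted p values up to 0.237. Antxr1 measured 6.22, 6.50 and 6.20 in DHT fat and 7.83, 7.14 and 7.05 in control fat. It fell by 1.04 (95% CI -1.50 to -0.57, 2.05-fold, adjusted p = 0.0484 by limma), a call lost without any 1 of the DHT arrays, with adjusted p values up to 0.129. Antxr1 had 0.08 in the ovary and Antxr2 had 0.17 in fat, both with overlapping groups. None of the other receptors tested, 10 in the ovary and 9 in fat, was called, the integrin chains and the discoidin domain receptors among them.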

How the data were processed

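Gene expression in ovary and gonadal fat was compared between DHT-treated mice and control mice (n = 3 per group). The authors deposited log2 values, 1 per transcript cluster and array, for 65929 rows. MAS5 is named in the submitters' processing notes, and the normalization and genome build are not given in the sources used here. A single symbol was given for 30638 rows, several for 2176 and none for 33115. Array values carry no read depth, so the number of arrays limits precision. The p-values set a group difference against the spread between these samples, with variance estimates shared over genes.

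Fat values were re-paired with row names by sorting the names with the low line character (_) ahead of digits. Where a gene had several rows, that of highest mean was kept. Each tissue was fitted with limma 3.58.1 in R 4.3.3 over all genes tested (19118 in the ovary, 19251 in fat), and the difference between tissues over 12 arrays and 18080 genes. The SAM test of the study's methods, which permutes the samples, was not run. The smallest exact permutation p for 3 against 3 is 0.1. On simulated data with 200 changed genes the same limma steps were checked. In the ovary they recovered 92.0% of 2-fold and 99.0% of 4-fold changes, and 9.9% of calls were false. In fat these shares were 90.0%, 98.0% and 14.2%, the last above the share that the threshold allows.

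Genes named were every chain called, the collagen VI chains, the 3 lowest p of each of 4 main classes, their partners, and called or lowest-p genes of the synthesis and receptor lists. Members and lists were chosen with earlier results of these data known. Same-numbered samples of ovary and fat deviated together in every pair (r = 0.110 to 0.192), so numbers were taken to pair the tissues of a mouse. Alternatives covered normalization, low-value filters, row order, variance model, threshold, marker covariates, blocks and leaving out each array.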

Additional observations from a re-analysis of the deposited data

Results flagged for a closer look

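The DHT effects of 10 genes differed between gonadal fat and ovary at an adjusted p of at most 0.10. The test was an interaction term in 1 limma model over the 12 arrays, without a mouse block. Of 39 chain genes tested, 1 had the higher effect in fat and 4 the lower. These counts were 2 and 1 of 30 synthesis genes, and 1 and 1 of 10 receptor genes. Of all 18080 genes tested, 4.63% had the higher effect in fat and 1.51% the lower. Differences are fat minus ovary on the log2 scale. Among the chain genes they were 0.54 for Col6a6, -0.68 for Col11a1, -1.22 for Col14a1, -0.47 for Col4a3 and -0.54 for Col4a6. Antxr1 differed by -1.12, called in all 16 alternatives, and Antxr2 by 0.77, called in 8 of 16. P4ha1, a subunit of prolyl hydroxylase, differed by -0.53 (adjusted p = 0.0995), with log2 fold changes of 0.10 in the ovary and -0.43 in fat, and was called in 2 of 15 alternatives. Fkbp14 differed by 0.38 (adjusted p = 0.0765), called in 8 of 16. Sparc, a chaperone that binds collagen, differed by 0.48 (adjusted p = 0.0673), with -0.27 in the ovary and 0.21 in fat, called in 6 of 16. Groups of 3 are too small to test for single outlying arrays, so high arrays in the text are described and not tested.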

How the results depend on the processing

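Of the chain genes named in the text, Col6a5 was called in fat in all 17 alternatives (1.51 to 1.70 on the log2 scale) and in the ovary in 16 of 18 (1.49 to 1.92). In the ovary 2 chain genes were called. The count was 1 with quantile normalization, median centring, no filter, the 75th percentile filter, smooth muscle or adipocyte covariates, an adjusted p threshold of 0.05 or a 2-fold minimum, 0 without both oviduct-rich arrays, and 1 to 1 when leaving out each array. It was 3 with all 12 arrays in 1 fit, which added Col11a1, and 3 with the oviduct covariate, which added Col4a4. In fat the count of 3 became 1 with the smooth muscle covariate or the 0.05 threshold, 2 with median centring or no filter, which both lost Col14a1, and 1 to 2 when leaving out an array. It was 3 in the deposited row order, in which Col14a1 was not tested, and 2 over the rows that did not move. The 5 differences between tissues became 3 with median centring, 1 at the 0.05 threshold and 1 to 6 when leaving out an array. Synthesis genes went from 0 to 2 in the ovary with the 75th percentile filter and 0 to 1 when leaving out an array. In fat they went from 0 to 1 with quantile normalization, to 3 with the 75th percentile filter or with all 12 arrays in 1 fit, and to 0 to 1 when leaving out an array. The 1 receptor called in the ovary became 0 without a filter, with the adipocyte covariate, without both oviduct-rich arrays, at the 0.05 threshold or with a 2-fold minimum, and 0 to 1 when leaving out an array. In fat the 1 receptor became 0 with median centring, 2 with the 75th percentile filter or all 12 arrays, and 0 to 1 when leaving out an array. The smooth muscle covariate was not part of the synthesis and receptor counts. Over all its alternatives, Antxr2 was called in the ovary in 8 of 18, and Antxr1 in fat in 13 of 17. In the ovary, small negative changes turned positive for Col1a2 (0.128 without control replicate 1, 0.0153 with the smooth muscle covariate, 0.284 with the adipocyte covariate), Col15a1 (0.0175 with the adipocyte covariate), Col12a1 (-0.236 to 0.015 when leaving out an array, 0.0737 with the smooth muscle covariate), Col6a1 (0.0189 with the adipocyte covariate), Col6a2 (-0.167 to 0.0013 when leaving out an array, 0.106 with the adipocyte covariate) and Col6a3 (0.119 with the adipocyte covariate). Apart from the fits with fewer arrays or genes, the cause was not tested.

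Same-numbered DHT and control samples did not deviate together (r from -0.525 to 0.411 in the ovary and -0.184 to 0.268 in fat), so a replicate block within a tissue pairs by number alone. With it 0 chain genes and 0 receptors were called in the ovary and 3 chain genes, 1 synthesis gene and 1 receptor in fat.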
